A study of Mus musculus with 8 samples.

Results

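Gene expression of Lf-/- mice was compared with that of WT mice over early B cell fractions of the bone marrow, with both developmental stages in one comparison. Members were chosen by genotype label, and the 7 libraries analysed here, of 8 labelled samples, were 4 from Lf-/- mice and 3 from WT mice. The mice were of the C57BL/6J strain, WT littermates of matched age served as controls, and age and sex were not given in the sources used here. For each genotype, 2 libraries were labelled pre-pro-B. The pro-B stage had 2 Lf-/- libraries and 1 WT library, and its second labelled WT sample is not analysed here. Cells were sorted by flow cytometry, and the study gated pre-pro-B cells from AA4.1+B220+ cells and pro-B cells as B220+CD43+IgM-. The Lf-/- line was made earlier by the same laboratory and kept on a C57BL/6 background, and which part of the gene it lacks was not given in the sources used here. The labels carry the same mouse numbers at both stages (WT1, KO1 and KO2), so libraries of a genotype may share animals, and n below counts libraries. The study states more mice per group than there are labelled libraries per group, and whether animals were pooled was not given in the sources used here. The p-values below therefore measure the spread between these samples, which may be technical.

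Lactoferrin is an iron-binding glycoprotein of milk and other secretions, and in the bone marrow it is made by developing neutrophils and stored in their specific granules. Early B cell development runs from lymphoid progenitors through pre-pro-B and pro-B stages under the transcription factors E2A (Tcf3), Ebf1 and Pax5, and is sustained by stromal signals such as IL-7 and CXCL12, the ligand of Cxcr4. The study compared the genotypes to learn how loss of lactoferrin alters expression in these fractions.

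The deposited value of a gene is its FPKM, a fragment count scaled to the length of the transcript and to the fragments of the library. The FPKM of a library summed to between 694578 and 834693. Steps in the values gave depths between 10.8 and 15.3 (in units of 1e+06 fragments) for 6 libraries, whereas Lf-/- pre-pro-B 2 showed no readable steps. That library also stood apart with 12172 genes above 0, against 19477 to 20250 in the others, so values without it are given beside the results that it moved most. Markers of the B lineage differed widely in level. Pax5 lay between 0.453 and 5.51 FPKM, whereas Cd79a lay between 86.1 and 1518 FPKM. Neutrophil granule and S100 transcripts together took between 29.0% and 56.9% of the summed FPKM, and S100a8 alone reached 52882 to 150489 FPKM. The fractions are therefore called here by their labels. Other lineages were present as well: erythroid genes took 1.97% to 15.3% of the summed FPKM, while the stromal gene Cxcl12 did not pass 0.0196 FPKM.

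Ltf, which encodes lactoferrin (GRCm38 chr9:111019271-111042767), was examined first. WT libraries held 2143 and 2731 FPKM at the pre-pro-B stage and 2650 FPKM at the pro-B stage. Lf-/- libraries held 88.2 and 149 FPKM at the pre-pro-B stage and 168 and 96.0 FPKM at the pro-B stage. All libraries matched their genotype label, and a remnant of Ltf reads stayed in each Lf-/- library. On the log2(FPKM + 1) scale Ltf fell by 4.38 with a standard error of 0.33 (limma with stage as covariate, Benjamini-Hochberg adjusted p = 0.00206). Its difference was -4.39 at the pre-pro-B stage and -4.37 at the pro-B stage.

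Genes of B cells were prominent among those that rose in Lf-/- libraries. Among 10793 genes with at least 1 FPKM in 2 or more libraries, 20 passed an adjusted p of 0.05 for genotype, which is 0.185% of those tested. Of these, 19 (0.176%) rose and 1 (0.00927%), Ltf itself, fell. The lists of B lineage, B cell surface, receptor, immunoglobulin and MHC class II genes held 9 of the calls. The calls comprised 13 protein-coding or immunoglobulin genes, 5 processed pseudogenes, 1 long intergenic RNA and 1 unclassified transcript. In all 20 the 4 Lf-/- values lay beyond the 3 WT values, as did those of 9.87% of all genes on the higher and 1.13% on the lower side. Where the groups do not overlap, the direction is necessarily the same at both stages. In bulk samples, a change in how many cells of a type were sorted and a change of RNA per cell cannot be told apart.

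An unadjusted p of 0.05, the threshold that the study names, was passed by 774 genes, or 7.17% of those tested. Of them 699 (6.48%) were higher and 75 (0.695%) were lower in Lf-/- libraries. The median log2 difference of all genes was 0.21, and median-ratio scaling, which sets the typical gene equal between libraries, moved it to -0.04. With that scaling, 786 genes (7.28%) passed the unadjusted threshold, 465 (4.31%) of them higher and 321 (2.97%) lower. Higher genes thus made up 59.2% of those passing, against 90.3% of the values as deposited. The adjusted threshold was passed by 7 genes (0.0649%), 5 higher (0.0463%) and 2 lower (0.0185%). The 20 calls shared 6 genes with these 7: Ltf, Gm8210, Gm13841, Gm14036, Fcmr and Ms4a1.

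**Figure D1:**
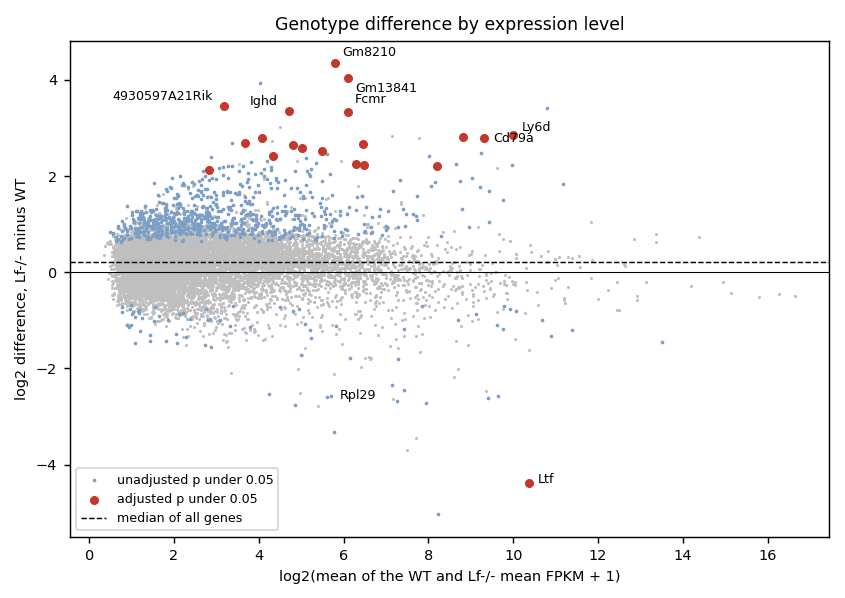
Each point is 1 of the 10793 genes tested. The x axis gives its mean level as log2(FPKM + 1) and the y axis its log2 difference, Lf-/- minus WT, adjusted for stage. The 19 red points above 0 and the single one below it (Ltf) passed an adjusted p of 0.05, and the dashed line marks the median of all genes at 0.21.

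The number of calls depended on single libraries. Without Lf-/- pre-pro-B 2 it was 127 (1.18% of genes, or 1.14% higher and 0.0371% lower) and included all 20, and 1039 genes (9.63%, or 8.83% higher and 0.797% lower) passed the unadjusted threshold. By contrast, without WT pro-B 1 no gene passed, with a lowest adjusted p of 0.127 and 529 genes past the unadjusted threshold. It was 59 without Lf-/- pre-pro-B 1, 5 without WT pre-pro-B 1, 6 without WT pre-pro-B 2, 3 without Lf-/- pro-B 1 and 3 without Lf-/- pro-B 2.

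Components of the B cell receptor were among the genes that rose. Cd79a and Cd79b encode the paired signalling chains that carry the receptor. Cd79a (chr7:24897381-24902197) measured 261, 203 and 86.1 FPKM in WT pre-pro-B 1, pre-pro-B 2 and pro-B 1. In the same order of stages, the Lf-/- libraries held 1518, 993, 1105 and 731 FPKM. The lowest Lf-/- value was thus above the highest WT value, and Cd79a rose by 2.79 ± 0.34 (log2 difference ± SE, limma adjusted p = 0.0273). Cd79b (chr11:106311341-106314762) had a mean of 127 ± 64.7 FPKM over WT and of 778 ± 288 FPKM over Lf-/- libraries (SD, n = 3 and 4), a log2 difference of 2.82 ± 0.30 (SE; limma adjusted p = 0.0136). Ighd, the constant region of IgD that is used by mature B cells, measured 2.97, 3.98 and 2.59 FPKM in WT libraries. Its Lf-/- values were 18.1, 79.8, 51.1 and 40.1 FPKM, a log2 difference of 3.36 ± 0.48 (SE; limma adjusted p = 0.0444).

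Surface molecules of B cells rose with them. Fcmr, the receptor for IgM Fc, measured 16.2, 8.30 and 9.73 FPKM in WT libraries. Lf-/- libraries held 77.7, 190, 117 and 109 FPKM of it, and its log2 difference was 3.33 ± 0.39 (SE; limma adjusted p = 0.021). Ms4a1, which encodes CD20, rose from 2.55 ± 0.950 to 20.8 ± 10.3 FPKM (SD, n = 3 and 4), with a log2 difference of 2.68. Ly6d, a surface marker of B cell specified progenitors, was the most abundant of the surface genes that rose, with 280 ± 158 FPKM in WT and 1749 ± 989 FPKM in Lf-/- libraries (SD, n = 3 and 4). Within each genotype Ly6d was lower in pro-B than in pre-pro-B libraries. Fcrla, an Fc receptor-like protein of B cells, averaged 14.2 FPKM in WT and 73.2 FPKM in Lf-/- libraries, a log2 difference of 2.51. Ptprcap, a CD45-associated protein of lymphocytes, had a log2 difference of 2.21 and the lambda variable segment Iglv3 one of 2.67.

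**Figure D2:**
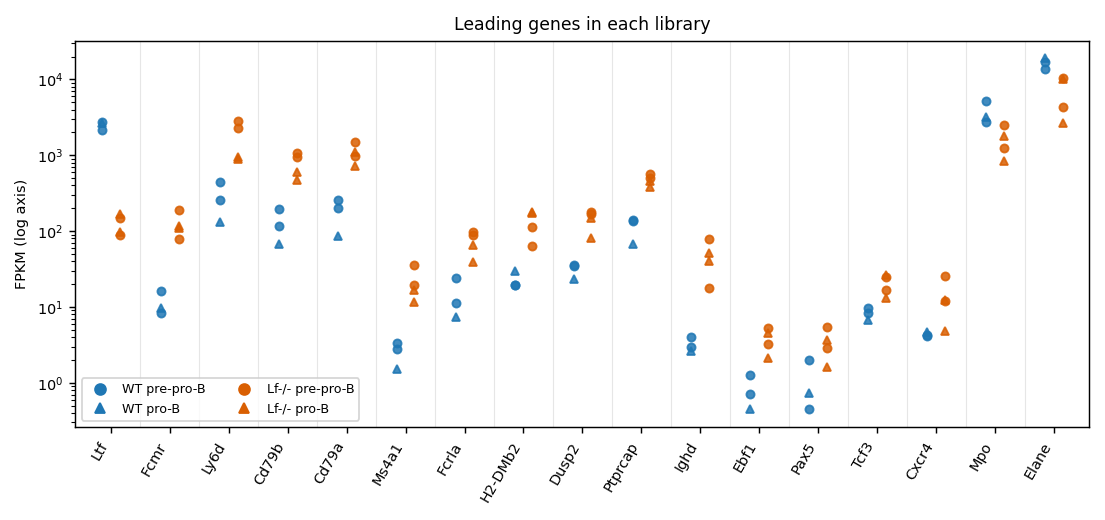
FPKM of 17 genes in each library on a log axis, with WT in blue on the left and Lf-/- in orange on the right of each gene, circles for pre-pro-B and triangles for pro-B libraries. Ltf sits far lower in the Lf-/- libraries, the genes from Fcmr to Ighd sit higher without overlap, and Pax5 overlaps between genotypes.

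Looking at whole gene lists, the early B lineage list (receptor components, co-receptors and surrogate light chain) had 22 tested members. All 22 had a log2 difference above 0, as had 66.8% of all genes, 18 passed the unadjusted threshold as higher and none as lower, against 6.48% of all genes. Its median log2 difference was 1.71, or 1.44 with median-ratio scaling. The mature B cell surface list was much the same, with 14 of 17 members past the unadjusted threshold as higher and a median of 1.76, or 1.53 with median-ratio scaling. Without Lf-/- pre-pro-B 2, 20 of 22 and 17 of 17 members of these lists passed as higher, against 8.83% of all genes. Counts of the lists that follow stand beside 6.48% of all genes higher and 0.695% lower. With median-ratio scaling these shares were 4.31% and 2.97%, and without Lf-/- pre-pro-B 2 they were 8.83% and 0.797%. For single values, surrogate light chain genes varied widely. Vpreb1, which pairs with Igll1 in the pre-B cell receptor, measured 12.1, 70.0 and 12.7 FPKM in WT libraries and 62.1, 33.5, 351 and 71.7 FPKM in Lf-/- libraries. Here the genotypes overlapped (limma adjusted p = 0.689).

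As a share of the summed FPKM, early B lineage genes took 0.0539% to 0.125% in WT and 0.272% to 0.494% in Lf-/- libraries. Even the highest share of this list was thus below 1% of the signal. The groups did not overlap, with p = 0.0556 by an exact two-sided permutation of genotype labels within stages, which is the smallest p that its 18 arrangements allow. Immunoglobulin constant genes, a separate list, took more of the signal: 1.94% to 7.60% in WT and 1.77% to 9.50% in Lf-/- libraries. Here the genotypes overlapped (exact permutation p = 0.889).

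**Figure D3:**
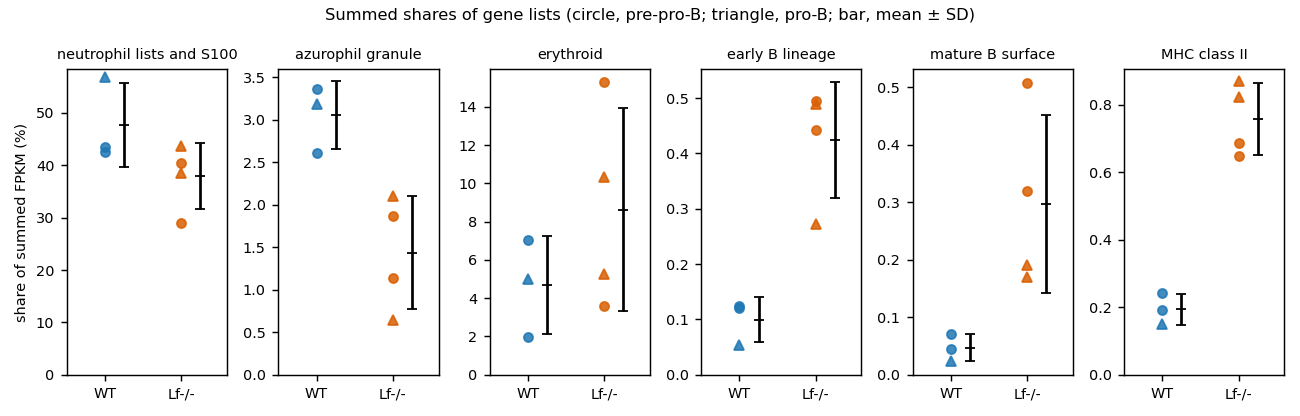
Share of the summed FPKM of each library taken by 6 gene lists, in percent, with 1 point per library and a bar for the mean ± SD (n = 3 WT, n = 4 Lf-/-). The 3 right panels (early B lineage, mature B surface, MHC class II) show no overlap between genotypes, and the neutrophil total overlaps between 42.5% and 43.7%.

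Transcription factors of the B lineage were higher in Lf-/- libraries, but none passed the adjusted threshold with all libraries. In this list 12 of 17 members passed the unadjusted threshold as higher, none as lower, and the median log2 difference was 1.18 (0.88 with median-ratio scaling). Ebf1, which specifies the B lineage, measured 1.26, 0.708 and 0.445 FPKM in WT libraries. Its Lf-/- values were 5.32, 3.22, 4.58 and 2.12 FPKM, so the genotypes did not overlap. The log2 difference of Ebf1 was 1.45 ± 0.34 (SE; limma adjusted p = 0.243, and 0.0293 without Lf-/- pre-pro-B 2). Pax5, which commits cells to the B lineage, measured 1.97, 0.453 and 0.730 FPKM in WT libraries against 5.51, 2.90, 3.69 and 1.63 FPKM in Lf-/- libraries. One Lf-/- pro-B library lay within the WT range, and the difference of 1.18 ± 0.40 (log2 ± SE) had a limma adjusted p of 0.53. Tcf3 averaged 8.27 ± 1.46 FPKM in WT and 20.1 ± 6.34 FPKM in Lf-/- libraries (SD, n = 3 and 4; limma adjusted p = 0.39). Spib, a partner of Irf4 and Irf8 in lymphoid cells, had the lowest unadjusted p of the list and measured 13.2 ± 6.57 and 60.1 ± 32.2 FPKM (SD; adjusted p = 0.152 in limma with n = 3 and 4). Id3, an inhibitor of E proteins, measured 7.64 ± 2.81 and 32.6 ± 13.7 FPKM (SD). Irf4, which acts in light chain rearrangement and in plasma cells, averaged 1.06 FPKM in WT and 6.12 FPKM in Lf-/- libraries. By contrast Spi1, the myeloid and lymphoid factor PU.1, measured 141, 139 and 132 FPKM in WT and 115, 193, 137 and 169 FPKM in Lf-/- libraries, and its log2 difference of 0.14 turned to -0.20 with median-ratio scaling. Bcl11a, needed for lymphoid development, measured 0.798 ± 0.180 FPKM in WT and 1.83 ± 1.01 FPKM in Lf-/- libraries (SD; adjusted p = 0.689 in limma with n = 3 and 4). The study discusses Pax5, Ebf1, Tcf3, Spi1, Bcl11a and Cxcr4 in these cells, so they are no independent selection.

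A long intergenic RNA that lies upstream of Ebf1 on the same strand was among the adjusted calls. This gene, 4930597A21Rik, spans chr11:44586317-44591229, and Ebf1 starts at position 44617317. It was listed at 0 in WT pre-pro-B 1 and WT pro-B 1 and at 2.64 FPKM in WT pre-pro-B 2. Lf-/- libraries held 19.6, 23.2, 8.26 and 9.92 FPKM. The log2 difference of 3.46 ± 0.45 (SE; limma adjusted p = 0.0288) depends on the pseudocount of 1, because 2 WT values are 0.

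MHC class II genes, which present peptides on B cells, dendritic cells and macrophages, were higher as well. In this list 9 of 10 members passed the unadjusted threshold as higher, the median log2 difference was 1.80, and it was 1.48 with median-ratio scaling. H2-DMb2, a subunit of the peptide-loading complex H2-DM (chr17:34143307-34151555), measured 19.6, 19.7 and 29.5 FPKM in WT libraries. Lf-/- libraries held 114, 63.7, 172 and 177 FPKM, and it rose by 2.25 ± 0.31 (log2 ± SE, limma adjusted p = 0.0382). Cd74, the invariant chain, measured 967, 1236 and 820 FPKM in WT libraries and 3989, 2672, 3875 and 3839 FPKM in Lf-/- libraries. Although the groups were far apart, its limma adjusted p was 0.0743 with all libraries and 0.0114 without Lf-/- pre-pro-B 2. The antigen-presenting heterodimer genes H2-Ab1 and H2-Aa had log2 differences of 1.96 and 1.88. The share of the summed FPKM taken by MHC class II genes was 0.150% to 0.241% in WT and 0.647% to 0.869% in Lf-/- libraries, again without overlap (exact permutation p = 0.0556).

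**Figure D4:**
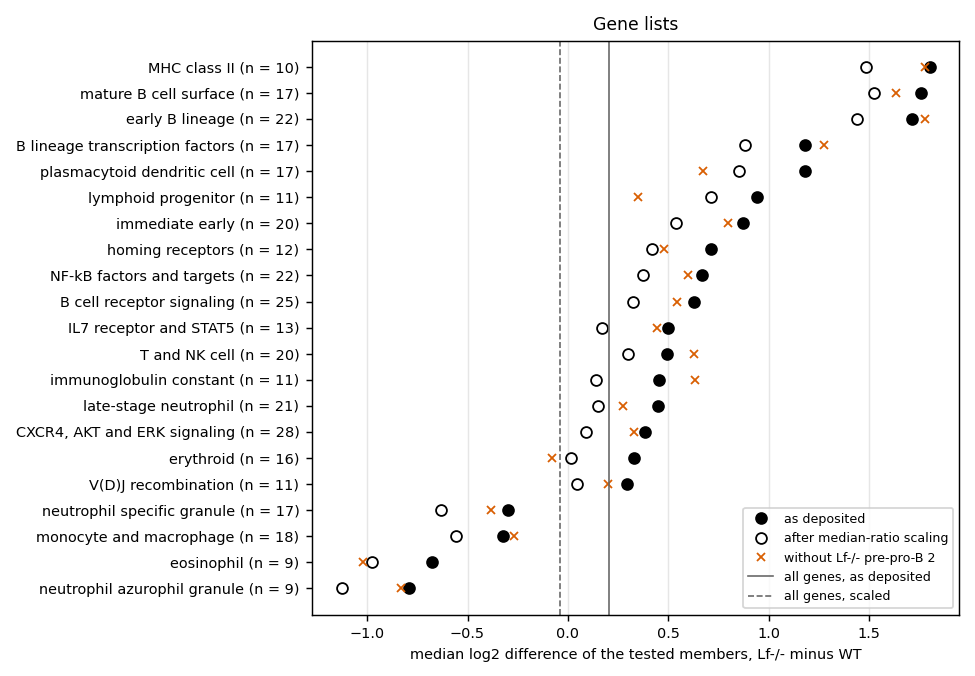
Median log2 difference (Lf-/- minus WT) of the tested members of 21 gene lists on the x axis, for the values as deposited (filled circles), after median-ratio scaling (open circles) and without Lf-/- pre-pro-B 2 (crosses). Vertical lines give the median of all genes, 0.21 as deposited and -0.04 scaled. MHC class II, mature B and early B lists lie furthest to the right under each, in an order that differs between them, and the azurophil granule and eosinophil lists lie furthest to the left.

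Signalling genes downstream of the B cell receptor moved less than its surface components. In that list 7 of 25 members passed the unadjusted threshold as higher and none as lower, with a median log2 difference of 0.63. Blk, a B cell Src family kinase, measured 3.50 ± 1.07 FPKM in WT and 17.8 ± 5.57 FPKM in Lf-/- libraries (SD), the adaptor Blnk 6.66 ± 3.27 and 30.1 ± 9.39 FPKM, and the inhibitory receptor Cd22 1.07 ± 0.384 and 5.27 ± 2.34 FPKM. With all libraries none of the 3 passed the adjusted threshold, and without Lf-/- pre-pro-B 2 all did, with limma adjusted p-values of 0.022, 0.0273 and 0.0285. Immunoglobulin constant genes were mixed: 4 of 11 passed the unadjusted threshold as higher, with a median of 0.45. The lambda constant gene Iglc3 averaged 211 FPKM in WT and 1001 FPKM in Lf-/- libraries. For Ighg2c, an IgG heavy chain of activated B cells, the means were 292 and 894 FPKM, with overlap between genotypes. Genes of V(D)J recombination had a median of 0.30, near that of all genes, and 4 of 11 members passed the unadjusted threshold as higher. Rag1, the recombinase, held 0.166, 0.162 and 0 FPKM in WT and 1.41, 1.81, 0.893 and 0.338 FPKM in Lf-/- libraries. Rag1 counts among the 4 but reached 1 FPKM in Lf-/- libraries only, so the filter favoured its direction. Dntt, which adds bases at the joints, measured 8.10 ± 6.36 FPKM in WT and 33.8 ± 24.0 FPKM in Lf-/- libraries (SD), and the groups overlapped.

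The chemokine receptor Cxcr4 and its downstream kinases are at the centre of the study. Cxcr4, which holds B cell precursors in the marrow (chr1:128588199-128592293), measured 4.20, 4.25 and 4.66 FPKM in WT libraries. Its Lf-/- values were 12.1 and 25.4 FPKM at the pre-pro-B stage and 12.4 and 4.83 FPKM at the pro-B stage. The lowest of them lay just above the WT range, and the log2 difference was 1.36 ± 0.44 (SE; limma adjusted p = 0.501). With median-ratio scaling the genotypes overlapped for Cxcr4, and the log2 difference was 1.06. In the list of CXCR4, AKT and ERK signalling genes 6 of 28 members passed the unadjusted threshold as higher, and the median was 0.39 (0.09 with median-ratio scaling, against -0.04 for all genes). Dusp2, a nuclear phosphatase of ERK, was the list's only adjusted call. It measured 34.9, 36.1 and 23.1 FPKM in WT and 169, 181, 149 and 80.1 FPKM in Lf-/- libraries, a rise of 2.24 ± 0.30 (log2 ± SE, limma adjusted p = 0.0381). Dusp5, another ERK phosphatase, averaged 11.4 FPKM in WT and 40.8 FPKM in Lf-/- libraries. Foxo1, a factor held in check by AKT, averaged 1.63 and 6.75 FPKM.

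Homing and growth receptors of lymphocytes mostly had log2 differences above 0. These were 11 of 12 homing, 12 of 13 IL7 receptor and STAT5 and 9 of 11 lymphoid progenitor members, against 66.8% of all genes. The homing list had 4 of 12 members past the unadjusted threshold as higher and a median of 0.71. Ccr7, which guides lymphocytes into lymph nodes, measured 15.5 ± 11.3 FPKM in WT and 80.2 ± 31.2 FPKM in Lf-/- libraries (SD), S1pr1, an egress receptor, 3.49 ± 2.28 and 19.2 ± 9.31 FPKM, and the follicle receptor Cxcr5 0.584 ± 0.121 and 4.44 ± 1.46 FPKM. None of these passed the adjusted threshold with all libraries, and all 3 did without Lf-/- pre-pro-B 2. Cxcr5 reached 1 FPKM in Lf-/- libraries only, so the filter favoured its direction. Il7r, the receptor for IL-7, held 2.25, 2.25 and 1.48 FPKM in WT and 10.2, 21.2, 8.06 and 4.33 FPKM in Lf-/- libraries. It led both the IL7 receptor and STAT5 list (3 of 13 members past the unadjusted threshold as higher, median 0.50) and the lymphoid progenitor list (5 of 11, median 0.94). Il2rg, the common gamma chain that pairs with Il7r, averaged 26.0 FPKM in WT and 68.7 FPKM in Lf-/- libraries, and Sox4, a progenitor factor, 5.47 and 19.9 FPKM. The lymphoid progenitor median dropped to 0.35 without Lf-/- pre-pro-B 2.

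Immediate early genes, whose transcription responds rapidly to signals, were higher too. Of 20 members 9 passed the unadjusted threshold as higher, against 6.48% of all genes, and the median was 0.87. With median-ratio scaling 4 passed, against 4.31% of all genes, and the median was 0.54. Jund measured 179 ± 42.3 FPKM in WT and 676 ± 335 FPKM in Lf-/- libraries (SD), Junb 67.6 ± 16.3 and 196 ± 96.7 FPKM, Btg2 41.8 ± 6.30 and 112 ± 44.2 FPKM, and Klf2, a quiescence factor of lymphocytes, 65.3 ± 22.2 and 137 ± 25.9 FPKM. In the list of NF-kB factors and targets 6 of 22 members passed as higher, with a median of 0.67. Its member Birc3, an apoptosis inhibitor, averaged 2.26 FPKM in WT and 6.45 FPKM in Lf-/- libraries, and the activation marker Cd83 8.97 and 32.2 FPKM.

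Granule genes of neutrophil precursors were lower in Lf-/- libraries. In the azurophil list, granule proteins made at the promyelocyte stage, 4 of 9 members passed the unadjusted threshold as lower, against 0.695% of all genes. Its median log2 difference was -0.79, and with median-ratio scaling -1.13, with 7 of 9 members past the threshold as lower. Elane, neutrophil elastase, measured 13713, 16864 and 18996 FPKM in WT libraries. Lf-/- libraries held 10370, 4272, 2673 and 10234 FPKM, all below the WT values, with a log2 difference of -1.46 ± 0.51 (SE; limma adjusted p = 0.581). Mpo, myeloperoxidase, averaged 3704 ± 1289 FPKM in WT and 1614 ± 738 FPKM in Lf-/- libraries (SD), Prtn3, proteinase 3, 1171 ± 231 and 546 ± 234 FPKM, and Ctsg, cathepsin G, 2143 ± 135 and 1135 ± 439 FPKM. None of the list passed the adjusted threshold. The azurophil share of the summed FPKM was 2.61% to 3.37% in WT and 0.643% to 2.10% in Lf-/- libraries (exact permutation p = 0.111).

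Specific granule genes other than Ltf did not pass either threshold in the values as deposited. With median-ratio scaling Lcn2 and Wfdc21 passed the unadjusted threshold as lower, and without Lf-/- pre-pro-B 2 Chil3 did. The list of 17 had a median of -0.30 (-0.63 with median-ratio scaling), and Lcn2, lipocalin 2, measured 2942 ± 854 FPKM in WT and 1833 ± 63.3 FPKM in Lf-/- libraries (SD). For Chil3, a chitinase-like protein, the means were 9343 and 6195 FPKM, and for Wfdc21 2812 and 1918 FPKM. Among 21 late-stage neutrophil genes none passed the unadjusted threshold, and the median was 0.45. All neutrophil and S100 genes together took 47.6% ± 8.04 of the summed FPKM in WT and 37.9% ± 6.31 in Lf-/- libraries (SD, n = 3 and 4; exact permutation p = 0.0556). FPKM are relative values. Over the means this share was lower and the early B lineage share was higher in Lf-/- libraries. Lf-/- pro-B 2 had a neutrophil share of 43.7%, above both WT pre-pro-B libraries. This was the highest of the Lf-/- libraries, and its early B share of 0.272% was their lowest. Among WT libraries, WT pro-B 1 had the highest neutrophil share (56.9%) and the lowest early B share (0.0539%). WT pre-pro-B 1 and WT pre-pro-B 2 had neutrophil shares of 42.5% and 43.5% and early B shares of 0.121% and 0.125%. The part of the neutrophil share in the B lineage differences was not tested. Median-ratio scaling sets the typical gene equal between libraries and does not remove the neutrophil share, so it is no test of this.

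In the plasmacytoid dendritic cell list 9 of 17 members passed the unadjusted threshold as higher and 1 as lower, with a median of 1.18 that was 0.67 without Lf-/- pre-pro-B 2. Several of its members, such as Spib, Ly6d and Dntt, are also expressed by B cell progenitors. Atp1b1 averaged 3.96 FPKM in WT and 17.4 FPKM in Lf-/- libraries and Bst2, an interferon-inducible surface protein, 15.9 and 72.4 FPKM. Its defining marker Siglech overlapped between genotypes, with WT values of 3.94, 7.31 and 7.76 FPKM and Lf-/- values of 1.98, 43.8, 16.7 and 34.0 FPKM. The part of these cells in the MHC class II result was not tested. For monocytes and macrophages, 6 of 18 members passed as lower and none as higher, with a median of -0.33. C1qa, a complement component of macrophages, averaged 35.7 FPKM in WT and 18.1 FPKM in Lf-/- libraries and Spic, a factor of red pulp macrophages, 1.59 and 0.416 FPKM. The eosinophil list had 1 of 9 members past the threshold, Prg2, a granule protein with means of 2620 ± 575 and 1200 ± 756 FPKM (SD). Its median was -0.68, and without Lf-/- pre-pro-B 2 the median was -1.02 and 4 of 9 members passed as lower. No erythroid gene of 16 passed. Of 20 T and NK cell genes 2 passed as higher (Lck and Cd8b1) and 1 as lower (Nkg7), against 6.48% and 0.695% of all genes. Without Lf-/- pre-pro-B 2 these counts were 3 and 0, against 8.83% and 0.797%. The T cell kinase Lck averaged 2.88 FPKM in WT and 15.1 FPKM in Lf-/- libraries, and Nkg7, a cytotoxic granule protein, 1044 and 536 FPKM.

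Besides Ltf, the lower genes with the lowest unadjusted p included no adjusted call. Metallothionein Mt1 measured 232 ± 25.3 FPKM in WT and 108 ± 42.8 FPKM in Lf-/- libraries (SD), and Plac8, a small protein of myeloid and lymphoid cells, 719 ± 41.8 and 397 ± 76.8 FPKM. Others were low throughout: Gal, the neuropeptide galanin, averaged 4.10 FPKM in WT and 0.873 FPKM in Lf-/- libraries, Cd5l, a macrophage protein, 5.13 and 1.27 FPKM, Myl6b, a myosin light chain, 1.75 and 0.713 FPKM, and the small nuclear RNA Rnu5g 2.19 and 0.433 FPKM. Lf-/- pre-pro-B 2 was listed at 0 for Gal, Cd5l and Rnu5g. The clone-named genes with the largest falls were Gm13394, a processed pseudogene with means of 243 and 66.5 FPKM, 3000002C10Rik at 2.95 and 0.501 FPKM, and 9330159M07Rik at 1.51 and 0.181 FPKM.

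The 2 largest rises were not B lineage genes but processed pseudogenes of Rpl29, a protein of the large ribosomal subunit, while Rpl29 itself was lower. Rpl29 lies on the chromosome of Ltf (chr9:106429454-106431568). Its 483-base coding sequence was matched to GENCODE M21 transcripts, and 7 processed copies aligned at 98% identity or more over at least 400 bases, all of which were tested. This set was chosen after its values were seen. The copies differ from Rpl29 at few positions, counted from 1 at the A of the start codon. All 7 copies shared C300T and T423C, and Gm8210 and Gm13841 alone had C72A besides. The windows below show Rpl29 beside a copy that rose (Gm8210) and a copy that was lower (Gm10709), with the compared position in capitals.
Rpl29, positions 52 to 92: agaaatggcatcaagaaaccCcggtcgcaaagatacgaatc
Gm8210, positions 52 to 92: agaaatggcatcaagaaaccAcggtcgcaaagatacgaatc
Rpl29, positions 280 to 320: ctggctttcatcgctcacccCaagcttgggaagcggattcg
Gm8210 and Gm10709, positions 280 to 320: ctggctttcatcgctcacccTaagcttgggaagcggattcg
Rpl29, positions 403 to 443: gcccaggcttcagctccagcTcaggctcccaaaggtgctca
Gm8210 and Gm10709, positions 403 to 443: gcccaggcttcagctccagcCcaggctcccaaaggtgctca

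Rpl29 measured 74.7, 135 and 56.8 FPKM in WT libraries. Lf-/- libraries held 8.72, 17.3, 10.97 and 15.6 FPKM, a log2 difference of -2.57 ± 0.39 (SE; limma adjusted p = 0.0517, and 0.0309 with median-ratio scaling). No other of the 81 cytosolic ribosomal protein genes tested was past the unadjusted threshold as lower. Gm8210 (chr1:43189156-43189638) measured 4.96, 4.10 and 3.35 FPKM in WT libraries and 69.5, 155, 88.4 and 106 FPKM in Lf-/- libraries, a rise of 4.35 ± 0.34 (log2 ± SE, limma adjusted p = 0.00206). Gm13841 (chr5:115801677-115802159) rose by 4.04 ± 0.31, from 7.52, 6.92 and 6.09 FPKM to 97.1, 171, 110 and 138 FPKM. Neither copy overlapped between genotypes at either stage, and nor did Rpl29. Gm14036 (chr2:134803949-134804428) rose by 2.79 and Gm6344 (chr13:55085777-55086259) by 2.12. The other 3 copies did not pass the adjusted threshold: Gm15454 averaged 3.88 FPKM in WT and 11.3 FPKM in Lf-/- libraries, Gm10709 8.35 and 3.70 FPKM, and Gm5561 2.92 and 1.71 FPKM. Since copies this alike share most of their sequence, how the deposited counting divided reads between them and Rpl29 is not known, and the values of all 8 genes are uncertain for that reason.

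**Figure D5:**
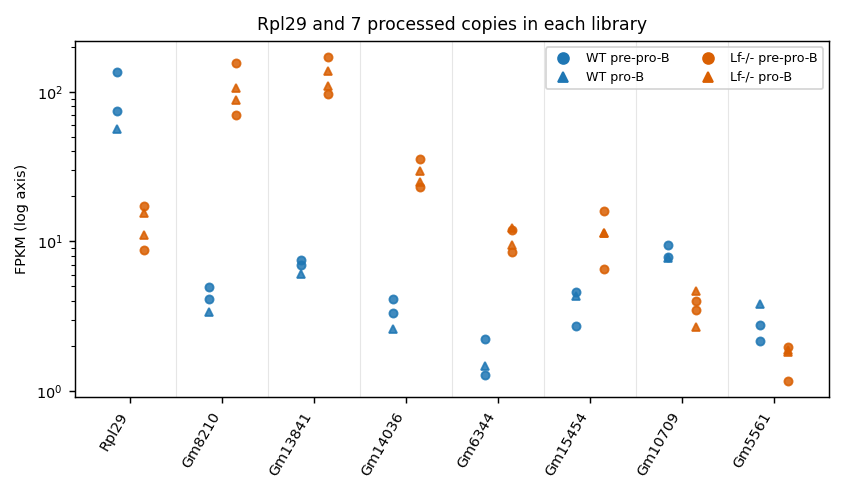
FPKM of Rpl29 and its 7 closest processed copies in each library on a log axis, WT in blue and Lf-/- in orange, circles for pre-pro-B and triangles for pro-B libraries. Rpl29, Gm10709 and Gm5561 sit lower in the Lf-/- libraries, and Gm8210, Gm13841, Gm14036, Gm6344 and Gm15454 sit higher, with no overlap in any of the 8.

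A second gene with a processed pseudogene lies closer to Ltf. Tma7 (chr9:109074568-109082587), a small translation-associated protein, measured 156 ± 8.77 FPKM in WT and 131 ± 29.5 FPKM in Lf-/- libraries (SD), with overlap and a limma adjusted p of 0.741, whereas its processed pseudogene Tma7-ps on chromosome 1 measured 18.3 ± 2.07 and 81.9 ± 24.8 FPKM (limma adjusted p = 0.0743, n = 3 and 4). The pair was chosen after its values were seen. The remaining calls were the processed pseudogene AC161114.1 (7.59 and 46.1 FPKM on average) and the unclassified transcript Gm45745 (6.97 and 31.6 FPKM).

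Genes around Ltf passed the unadjusted threshold about as often as all genes in both directions together, but lower genes were a larger share of those nearest to it. Within 20 Mb to either side 177 genes other than Ltf were tested, and 12 of them, 6.78%, passed the unadjusted threshold, against 7.17% of all genes. Within 5 Mb 6 of 88 did, 3 of them lower, with Rpl29 and 3000002C10Rik among these. This is 3.41% lower against 0.695% of all genes, and 4.55% of the 88 lay below all WT values without overlap against 1.13% of all genes. These shares rest on 3 and 4 genes, and the difference was not tested. No gene of either window other than Ltf passed the adjusted threshold. Lars2, a mitochondrial leucyl-tRNA synthetase on the same chromosome, held 0.284, 0.199 and 0.0818 FPKM in WT libraries and 45.1, 67.7, 0.185 and 7.91 FPKM in Lf-/- libraries. Lars2 reached 1 FPKM in Lf-/- libraries only, so the filter favoured its direction.

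Whether the genotype difference depended on the stage was tested with an interaction term in limma. No gene passed an adjusted p of 0.05, the lowest being 0.983, and 296 genes (2.74%) had an unadjusted p under 0.05. Only 1 WT pro-B library entered this test. The median log2 difference of all genes was 0.02 at the pre-pro-B stage and 0.48 at the pro-B stage. None of the 20 genotype calls had an interaction p under 0.05 before adjustment. Median differences of the early B lineage list were 1.23 at the pre-pro-B and 2.23 at the pro-B stage, and of the MHC class II list 1.48 and 2.22.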

How the data were processed

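RNA of sorted bone marrow fractions was sequenced on a NovaSeq instrument, and the authors deposited 1 table of FPKM values per library for 52550 genes. That the values are FPKM was inferred from them. The submitters' processing notes name TopHat, Cufflinks, HTSeq, DESeq and the build GRCm38, and versions are not given in the sources used here. Annotation came from GENCODE M21, in which 52403 of the 52550 identifiers were found. Groups were taken from the labels. Genes reaching 1 FPKM in 2 or more of the 7 libraries were fitted as log2(FPKM + 1) on genotype and stage (limma 3.58.1 in R 4.3.3, mean-variance trend, two-sided), with Benjamini-Hochberg adjustment over all 10793 genes, so fold changes of low genes are understated. Some genes passed this filter through 1 genotype alone, which favours the direction seen and makes it no independent support. Among the genes named, Rag1, Cxcr5, Bcl11a and Lars2 reached 1 FPKM in Lf-/- libraries only. Spic, 3000002C10Rik and 9330159M07Rik reached it in WT libraries only. Shares were tested by exact permutation in Python 3.11.15. Rpl29 copies were aligned with blastn 2.17.0. The fit was tested on simulated data.

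The members, gene lists and tests were chosen with earlier results of these data known. The genes named were Ltf; genes the study discusses; the 10 largest rises and 10 largest falls among genes whose groups do not overlap and whose direction holds with median-ratio scaling (adjusted calls first, then by unadjusted p, without V, D and J segments, pseudogenes and clone-named genes, of which the 3 largest each way were added); and up to 4 members of a list with the lowest p. Other genes, including the remaining adjusted calls, Vpreb1, Siglech, the Rpl29 copies, Tma7 and Lars2, were chosen after their values were seen. Alternatives tried were median-ratio scaling, quantile normalization, 2 other filters, a pseudocount of 0.1, no trend, no stage term, 2 kinds of block, the pre-pro-B libraries alone and each library left out in turn. Results for some genes are not reported here.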

Additional observations from a re-analysis of the deposited data

Results flagged for a closer look

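In 5 of 140 values checked (3.57%), 1 Lf-/- library lay far from the other 3, with a gap that took up most of the range of the 4. Chance alone gives so wide a gap in about 1 of 20 groups. The number of genes above 0 was 12172 in Lf-/- pre-pro-B 2, and the gap to the next library was 0.987 of the range. The same library had the lowest log2 values of Cd74 (gap of 0.904 of the range) and S100a9 (0.839). Lf-/- pro-B 2 had the lowest log2 value of Foxo1 (0.883) and the highest share of cytosolic ribosomal protein genes (0.856). Their causes were not tested.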

How the results depend on the processing

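Ltf was lower and lists of MHC class II, mature B and early B genes had positive medians under every setting run, whereas the number of adjusted calls (20) was not stable. It was 7 with median-ratio scaling, 11 with quantile normalization, 0 with no filter on low values (1154 unadjusted, lowest limma adjusted p 0.0625), 63 with a minimum of 1 FPKM in every library, 9 with a pseudocount of 0.1, 6 with no stage term and 0 in the pre-pro-B libraries alone (298 unadjusted). Leaving out 1 library at a time gave 0 to 127 adjusted and 436 to 3045 unadjusted calls. The Ltf difference was -4.38 with no filter and -4.39 in the pre-pro-B libraries alone, past neither adjusted threshold, and ranged from -4.57 to -4.19 with 1 library left out. It did not pass without WT pro-B 1 (limma adjusted p = 0.127), where the genotype term rests on the pre-pro-B libraries with a pooled spread. Causes were not tested.

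The early B lineage median was 2.19 with a pseudocount of 0.1, 1.23 in the pre-pro-B libraries alone and 1.23 to 1.91 with 1 library left out. The mature B cell median was 2.42 with 1 FPKM in every library, 2.53 with a pseudocount of 0.1 and 1.63 to 2.21 with 1 library left out. The MHC class II median was 1.48 with median-ratio scaling, 1.48 in the pre-pro-B libraries alone and 1.48 to 2.07 with 1 library left out. Signs turned for small differences: Spi1 was -0.20 with median-ratio scaling and -0.040 to 0.33 with 1 library left out, and the V(D)J median was -0.050 with quantile normalization. In the pre-pro-B libraries alone the late-stage neutrophil median was -0.036 and the T and NK cell median -0.32. With 1 library left out these medians ranged from -0.036 to 0.90 and from -0.32 to 0.67, and the erythroid median from -0.079 to 0.69.

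With the replicate number as a block, 22 genes passed the adjusted threshold, 17 of them among the 20. With the mouse label as a random block it was 22, including all 20, at an estimated correlation of -0.0933. Residual correlations of libraries with the same mouse label were -0.404 (WT1), 0.0988 (KO1) and -0.289 (KO2). Fitting genotype and stage to so few libraries forces part of these correlations. They therefore cannot show whether the libraries share animals. The small number of libraries, 3 and 4, and the lone WT pro-B library limit every comparison here, and depth could not be read for Lf-/- pre-pro-B 2.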

Other observations

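Further gene lists were examined. MHC class I genes had a median log2 difference of 0.53, with 2 of 13 past the unadjusted threshold as higher, against 6.48% of all genes. Their share of the summed FPKM was 0.474% to 0.573% in WT and 0.686% to 0.914% in Lf-/- libraries, without overlap. Without Lf-/- pre-pro-B 2, 6 of 13 passed as higher, against 8.83% of all genes. Targets of p53 had 5 of 17 members higher and a median of 0.61, and with median-ratio scaling 3 passed and the median was 0.34. No cell cycle and DNA replication gene of 32 and no replication-dependent histone gene of 65 passed, with medians of 0.13 and -0.49. The histone median was -0.13 without Lf-/- pre-pro-B 2.

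Immunoglobulin variable segments were mixed. Of 115 heavy chain variable segments 8 passed the unadjusted threshold as higher and 5 as lower, and of 104 kappa variable segments 9 and 4. Of all genes, 6.48% passed as higher and 0.695% as lower. Without Lf-/- pre-pro-B 2, 32 and 38 segments passed as higher and 3 and 3 as lower. The shares of all genes were then 8.83% and 0.797%. Many segments are near-identical, and values of single segments are uncertain.

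Xist was detected in all libraries at 4.07 to 9.60 FPKM, and Ddx3y, Uty and Kdm5d were listed at 0 in all 7. Eif2s3y was listed at 0 in 6 libraries and at 0.0750 FPKM in Lf-/- pro-B 2.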
